A study of Mus musculus with 4 samples.

Results

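Hepatocytes are not alike along the path of blood through the liver lobule, and the genes described here are 8 that mark the hepatocytes around the portal vein: *Sds*, *Hal*, *Gls2*, *Sfxn1*, *Cyp2f2*, *Pigr*, *Ctsc* and *Cdh1*. They were taken by gene symbol from the table of transcript abundances, in which all 8 were found among 35739 genes. The rule uses no measured value, but the list was chosen with earlier results of these data known. The livers came from *Usp21* KO mice and from WT littermates, with 2 libraries per genotype (WT replicates 2 and 3, KO replicates 1 and 3). The KO is constitutive: exons 3 and 4 of *Usp21*, which encodes a ubiquitin-specific protease, were deleted by Cre-loxP recombination, and the allele was carried on a mixed background of B6 and the strain of the targeted ES cells. The study used mice of 10 to 11 weeks on a normal diet. The sex of these mice and the hour of liver collection were not given in the sources used here.

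Blood enters the lobule at the portal vein with the most oxygen and nutrients and leaves it at the central vein. Periportal hepatocytes are known for breaking down amino acids, making urea and making glucose, while pericentral hepatocytes make glutamine and carry much of the cytochrome P450 metabolism. Wnt signalling from endothelial cells near the central vein switches on the pericentral program through β-catenin and holds back the periportal one. Of the genes described here, *Sds*, *Hal* and *Gls2* encode enzymes that release nitrogen from serine, histidine and glutamine. *Sfxn1* encodes a carrier that brings serine into mitochondria. *Cyp2f2* encodes a cytochrome P450 that is unusual in being periportal. *Pigr* encodes the receptor that carries polymeric immunoglobulin across epithelia, *Ctsc* a lysosomal dipeptidyl peptidase, and *Cdh1* the adhesion protein E-cadherin.

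Levels are given as TPM, an abundance that salmon corrects for transcript length and scales to a fixed total, so that genes can be compared with each other. Differences between genotypes are KO minus WT means of log2(TPM + 1), and they understate the change of genes with low TPM. They were tested with limma, two-sided, and p-values were adjusted by the Benjamini-Hochberg method over 9581 genes whose mean reached 1 TPM. TPM keeps no record of the number of reads, so the counting error behind these values is unknown. The 2 libraries per genotype are taken as separate mice, and an exact permutation test of a single gene cannot give a p below 0.333 with them. *Usp21* itself stood at 4.07 and 6.29 TPM in WT livers against 1.64 and 2.93 in KO livers. Its difference was -0.92 (adjusted p = 0.464 from limma), so the targeted gene itself was not called. The tissue carried the marks of hepatocytes: albumin (*Alb*) stood between 27480 and 43180 TPM in the 4 libraries. Bulk RNA cannot tell fewer cells of a type from less RNA per cell, and it holds no position in the lobule, so the zone of expression was not measured.

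All 8 periportal genes had a higher mean in *Usp21* KO livers than in WT livers, and none of the 8 differences passed the test. The differences ran from 0.01 for *Hal* to 0.75 for *Cdh1* with a median of 0.19. Among all tested genes the median was 0.15 and 66.7% had a higher mean in KO. When the libraries were scaled to an equal upper quartile, the median of all tested genes moved to 0.04, and 5 of the 8 periportal genes were then higher in KO. Relative to the shift of all genes, *Cdh1*, *Sds* and *Gls2* stood at 0.60, 0.48 and 0.23, *Ctsc* and *Cyp2f2* at 0.06 and 0.01, and *Sfxn1*, *Pigr* and *Hal* at -0.06, -0.06 and -0.14.

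The KO libraries lay above both WT libraries for *Sds* and *Cdh1*, and the genotypes overlapped for the other 6 genes. Among all tested genes, 34.4% had KO libraries above both WT libraries, so 2 of 8 is not more than the background. With an adjusted p under 0.05 from limma, 0 of the 8 genes were called, compared with 8 of all tested genes (0.0835%). At an unadjusted p under 0.05, limma gave 0 of the 8 genes and 10.5% of all tested genes. Of the 8 genes, 0 differed by at least 2-fold on the log2(TPM + 1) scale, compared with 3.68% of all tested genes. Without KO replicate 3, KO replicate 1 stood alone for its genotype, and *Sds*, *Gls2* and *Cdh1* differed by 1.16, 0.92 and 1.22. Without KO replicate 1 the same genes differed by 0.10, -0.15 and 0.28. Such fits hold no spread between KO libraries, so only the size of the difference is given.

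**Figure D1:**
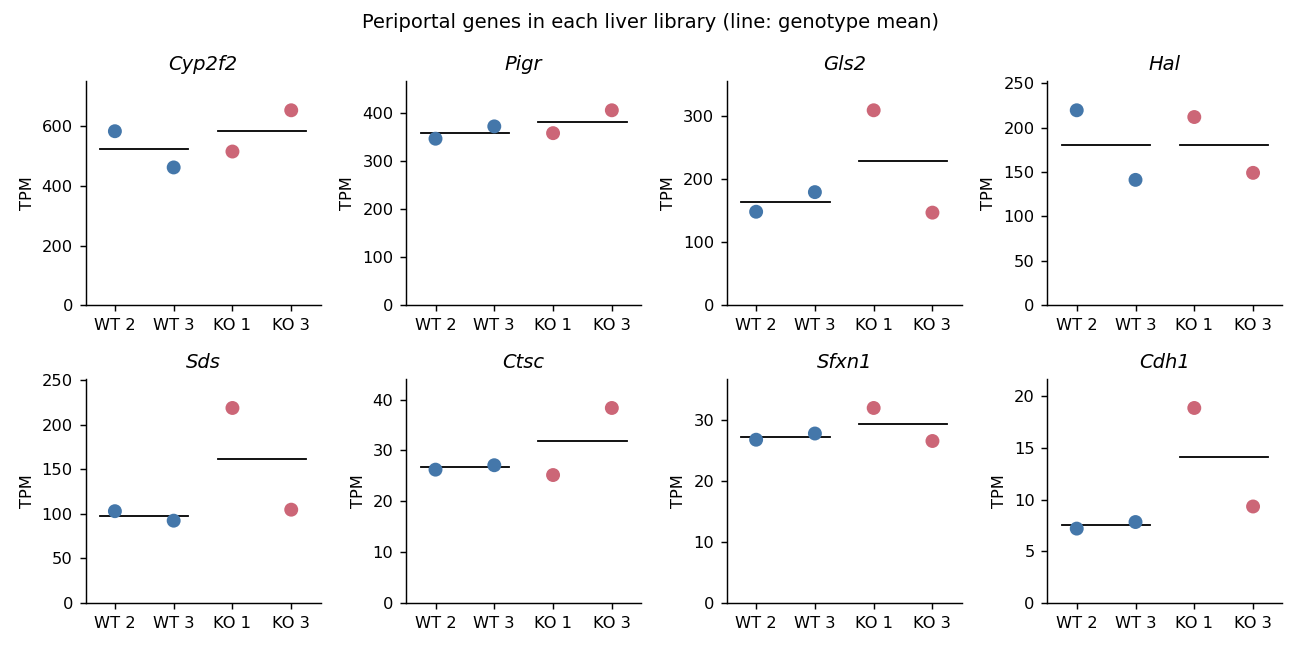
TPM (vertical axes, each starting at 0) of the 8 periportal genes in the WT libraries (blue) and the *Usp21* KO libraries (red), 1 point per library, with the genotype mean as a line. KO replicate 1 stands above the other libraries for *Sds* (219 TPM), *Gls2* (309 TPM) and *Cdh1* (18.9 TPM), while *Pigr* and *Sfxn1* lie in a narrow band.

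*Sds* (serine dehydratase, which turns serine into pyruvate and ammonia) lies on chromosome 5, from 120476526 to 120483932 on the forward strand of GRCm38. WT replicates 2 and 3 gave 103 and 92.4 TPM, and KO replicates 1 and 3 gave 219 and 105 TPM. The means were 97.8 ± 7.55 TPM in WT and 162 ± 80.8 TPM in KO (SD, n = 2 libraries). KO replicate 1 was 2.24 times the WT mean, whereas KO replicate 3 was 1.07 times the WT mean and only just above WT replicate 2. The difference was 0.63 (standard error 0.35, 95% interval -0.25 to 1.51, adjusted p = 0.537 from limma). It was 0.10 without KO replicate 1 and 1.16 without KO replicate 3. The last part of *Sds* overlaps *Plbd2* on the opposite strand. Counting matches on either strand, 24.6% of the 31-base stretches of *Sds* transcripts also occur in transcripts of *Plbd2* or the antisense gene *Gm15690*. *Plbd2* stood at 18.7 and 15.3 TPM in WT livers against 10.5 and 14.4 in KO livers, lowest in KO replicate 1. In the table of reads counted on the genome the order was another, with 184 and 122 reads of *Plbd2* in WT livers against 390 and 149 in KO livers, highest in KO replicate 1, and 0 reads of *Sds*. How reads of the overlap were divided between the genes was not tested.

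*Hal* (histidine ammonia-lyase, the first enzyme of histidine breakdown) lies on chromosome 10, from 93488768 to 93519304. Its levels were 219.6 and 141 TPM in WT livers against 212 and 149 in KO livers. Each genotype held a high and a low library, and the means were the same within their spread, 180.4 ± 55.4 TPM in WT and 180.5 ± 44.5 TPM in KO (SD, n = 2). The difference was 0.01 (95% interval -0.70 to 0.73, adjusted p = 0.987 from limma), and leaving out WT replicate 3 took it to -0.30, KO replicate 1 to -0.24 and WT replicate 2 to 0.33.

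Of the 4 genes of the pathway, including *Hal*, 3 were higher and 1 was lower, the median was 0.04 and the genotypes overlapped for all 4. Among all tested genes, the KO libraries lay above both WT libraries for 34.4% and below both for 10.9%. With upper quartile scaling 1 of the 4 was higher. *Uroc1*, the next enzyme after *Hal*, stood at 78.1 and 81.0 TPM in WT livers against 97.6 and 71.9 in KO livers. *Amdhd1*, which acts after *Uroc1*, had the highest difference of the pathway at 0.35 (adjusted p = 0.621 from limma).

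*Gls2* (liver-type glutaminase, which frees ammonia from glutamine for the urea cycle) lies on chromosome 10, from 128194457 to 128210004. It stood at 148 and 179 TPM in WT livers against 309 and 147 in KO livers. KO replicate 1 was the highest library and KO replicate 3 the lowest, with both WT libraries between them. The difference was 0.38 (standard error 0.36, 95% interval -0.52 to 1.29, adjusted p = 0.696 from limma). Its sign turned on 1 library, with -0.15 without KO replicate 1 and 0.92 without KO replicate 3.

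*Sfxn1* (sideroflexin 1) lies on chromosome 13, from 54071869 to 54108342. It stood at 26.8 and 27.9 TPM in WT livers against 32.1 and 26.6 in KO livers. Its difference of 0.09 had a 95% interval of -0.37 to 0.55 (adjusted p = 0.863 from limma), and it was -0.04 without KO replicate 1. Of the 5 sideroflexin genes, *Sfxn4* was listed at 0 in all 4 libraries and 3 were tested. These 3 were *Sfxn1*, *Sfxn2* and *Sfxn5*, with a median of 0.09, 2 higher in KO and overlapping genotypes. Among all tested genes, 34.4% had KO libraries above both WT libraries and 10.9% below both. With upper quartile scaling 0 of the 3 were higher. *Sfxn5* stood at 5.59 and 8.73 TPM in WT livers against 3.86 and 6.74 in KO livers.

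The genes around *Sds* and *Sfxn1* in serine and glycine metabolism were also read as a list. Of 13 genes, 11 were tested, with a median of 0.30, 8 higher and 3 lower (7 higher with upper quartile scaling). The KO libraries lay above both WT libraries for 4 of the 11, compared with 34.4% of all tested genes, and below both for 2, compared with 10.9%. With limma, 0 of the 11 had an adjusted p under 0.05 and 0 an unadjusted p under 0.05. The shares of all tested genes were 0.0835% and 10.5%. *Gldc*, the glycine decarboxylase of the mitochondrial glycine cleavage system, stood at 35.1 and 19.6 TPM in WT livers against 49.5 and 38.4 in KO livers, a difference of 0.71 (adjusted p = 0.485 from limma). *Gcsh*, which encodes another protein of that system, had the opposite order, with 107 and 115 TPM in WT livers against 88.4 and 91.1 in KO livers (difference -0.30, adjusted p = 0.518 from limma). The serine hydroxymethyltransferase gene *Shmt1* differed by -0.22.

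*Sdsl*, a gene related to *Sds*, begins on the opposite strand 3715 bp away, with 0 annotated genes between them. It was far less abundant than *Sds*, at 7.32 and 6.20 TPM in WT livers against 16.4 and 7.72 in KO livers. Both genes nevertheless had the same order of libraries, with KO replicate 1 highest, then KO replicate 3, WT replicate 2 and WT replicate 3. The difference of *Sdsl* was 0.67 (adjusted p = 0.526 from limma).

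Glutamine and glutamate metabolism showed differences in both directions around *Gls2*. Of 13 genes, 12 were tested, with a median of 0.09 and 6 in each direction, with and without upper quartile scaling. With limma, 0 of the 12 had an adjusted p under 0.05 and 4 an unadjusted p under 0.05, compared with 10.5% of all tested genes. *Got1*, the cytosolic aspartate aminotransferase, stood at 98.1 and 83.8 TPM in WT livers against 263 and 150.5 in KO livers (difference 1.13, unadjusted p = 0.00961 and adjusted p = 0.464 from limma). *Slc38a3*, a glutamine transporter of the hepatocyte membrane, stood at 485 and 491 TPM in WT livers against 308 and 268 in KO livers (difference -0.76, unadjusted p = 0.00483 and adjusted p = 0.443 from limma). For *Slc38a3* the lowest WT library was well above the highest KO library. *Gpt*, an alanine aminotransferase, was lower by the same measure (difference -0.64, adjusted p = 0.464 from limma).

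**Figure D2:**
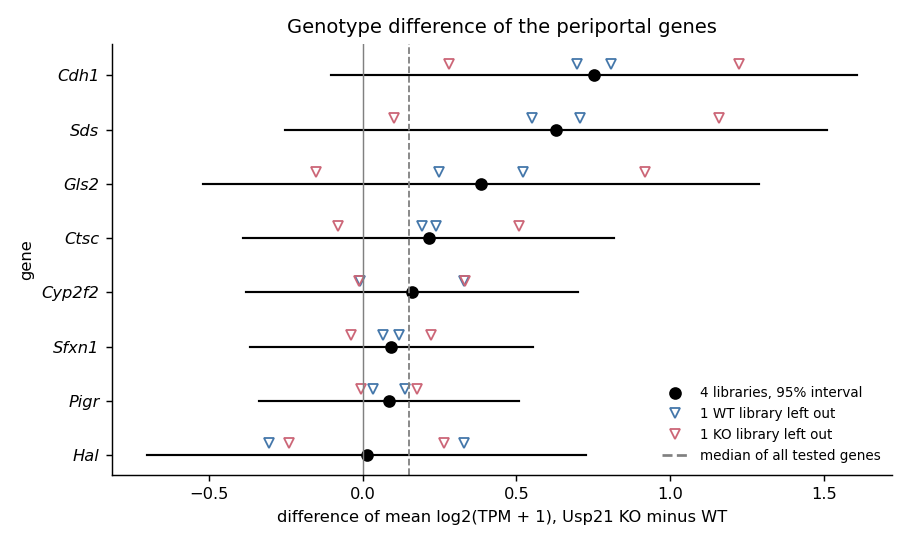
Difference of mean log2(TPM + 1), *Usp21* KO minus WT, for each periportal gene (black point) with its 95% interval from limma (line), and the difference with 1 library left out (triangles, blue for a WT and red for a KO library); the dashed line is the median of all tested genes. All 8 intervals include 0, and for *Cdh1*, *Sds* and *Gls2* leaving out a KO library moves the difference most.

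*Cyp2f2* was the most abundant of the 8 genes. It lies on chromosome 7, from 27119909 to 27133660, and stood at 583 and 462 TPM in WT livers against 515 and 653 in KO livers. The genotypes overlapped, with means of 522 ± 85.8 TPM in WT and 584 ± 97.8 TPM in KO (SD, n = 2). The difference was 0.16 (95% interval -0.38 to 0.70, adjusted p = 0.791 from limma), and it was -0.01 without WT replicate 3 and also without KO replicate 3. The antisense gene *Gm15883* lies within *Cyp2f2*. Counting matches on either strand, 10.9% of the 31-base stretches of *Cyp2f2* transcripts occur in it.

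*Pigr* varied least of the 8 genes. It lies on chromosome 1, from 130826684 to 130852249, which is 40.4 Mb from *Usp21* on the same chromosome. Its levels were 347 and 373 TPM in WT livers against 359 and 407 in KO livers, and the highest library was 1.17 times the lowest. The difference was 0.09 (95% interval -0.34 to 0.51, adjusted p = 0.862 from limma). In a second table, of reads counted on the genome, *Pigr* was the 1 periportal gene with more than 4 reads in a library: 79 and 101 in WT and 181 and 100 in KO. The edgeR quasi-likelihood test of these reads gave it a difference of 0.48 (adjusted p = 0.821). Whether the reads came from *Pigr* itself was not tested. *Cyp2f2* had at most 4 reads in that table, with a difference of 1.58 on its log2 scale (adjusted p = 0.650 from limma). *Gls2* had at most 3 and *Hal* at most 1, and *Sds*, *Ctsc*, *Sfxn1* and *Cdh1* were at 0 in all 4 libraries. By counting error alone a count of 0 allows up to 3 reads, which does not cover reads that the counting missed. Of the 9581 tested genes, 7271 were at 0 throughout that table, so that a 0 in it is not a sign of a silent gene. *Alb* had only 9 and 6 reads there in WT livers and 2 and 1 in KO livers. Why reads of abundant genes are missing was not tested. The differences from that table are therefore no check of the TPM values.

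*Cdh1* had the largest difference of the 8 genes and the lowest level. It lies on chromosome 8, from 106603351 to 106670246, and stood at 7.19 and 7.83 TPM in WT livers against 18.9 and 9.33 in KO livers. The means were 7.51 ± 0.45 TPM in WT and 14.1 ± 6.75 TPM in KO (SD, n = 2). The genotypes did not overlap: KO replicate 1 was far above the WT libraries and KO replicate 3 a little above them. The difference was 0.75 (standard error 0.34, 95% interval -0.10 to 1.61, unadjusted p = 0.0741 and adjusted p = 0.494 from limma). It was 0.28 without KO replicate 1 and 1.22 without KO replicate 3.

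At the adherens junction E-cadherin binds the catenins. Of 10 tested genes of the junction, including *Cdh1*, 9 had a higher mean in KO (8 with upper quartile scaling), compared with 66.7% of all tested genes, and the median was 0.36. The KO libraries lay above both WT libraries for 6 of the 10, compared with 34.4% of all tested genes. With limma, 0 had an adjusted p under 0.05 and 1 an unadjusted p under 0.05, near the 10.5% of all tested genes. That gene, named after its values were seen, was *Ctnnb1* (β-catenin), with 78.6 and 80.7 TPM in WT livers against 121 and 98.3 in KO livers (adjusted p = 0.473 from limma). *Nectin1* differed by 0.50 and *Jup* (plakoglobin) by -0.29. *Cdh2*, the N-cadherin that hepatocytes also make, had between 19.1 and 22.9 TPM in all 4 libraries and was above *Cdh1* in every library.

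*Cdh1* and *Pigr* are also made by cholangiocytes, the cells of the bile ducts, so markers of these cells were set beside them. The 10 cholangiocyte markers summed to 14.9 and 16.9 TPM in WT livers against 39.6 and 24.8 in KO livers, the same order of libraries by genotype as *Cdh1*. *Spp1* made up most of that sum, with 13.2 and 12.7 TPM in WT livers against 33.4 and 20.7 in KO livers (difference 0.97, adjusted p = 0.464 from limma). Without *Spp1* the sum was 1.64 and 4.16 TPM in WT livers against 6.22 and 4.09 in KO livers. *Epcam* stayed at or under 0.704 TPM. *Krt19*, named after its values were seen, stood under the filter at 0.196 and 0.263 TPM in WT livers against 0.998 and 1.28 in KO livers. *Pigr* did not have the library order of the marker sum, with 347 and 373 TPM in WT livers against 359 and 407 in KO livers. The part of bile duct cells in the values of *Cdh1* and *Pigr* was not tested.

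*Ctsc* lies on chromosome 7, from 88278085 to 88310888. It stood at 26.2 and 27.1 TPM in WT livers against 25.2 and 38.3 in KO livers. The 2 KO libraries lay on either side of the WT libraries, with KO replicate 3 highest and KO replicate 1 lowest. The difference was 0.21 (95% interval -0.39 to 0.82, adjusted p = 0.747 from limma), and it was 0.51 without KO replicate 1 and -0.08 without KO replicate 3. Among the 10 lysosomal cathepsin genes *Ctsc* had the highest difference. Of these, 4 were higher (3 with upper quartile scaling) and 6 lower, and the median was -0.04. At an unadjusted p under 0.05, limma gave 0 of the 10 and 10.5% of all tested genes. The KO libraries lay above both WT libraries for 1 of the 10, compared with 34.4% of all tested genes. They lay below both for 3, compared with 10.9%. *Ctsb* and *Ctsa* were the lowest of the list, at -0.25 and -0.26.

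*Ctsc* is also expressed by macrophages and other leukocytes, so their markers were set beside it. The 12 macrophage and leukocyte markers summed to 133 and 167 TPM in WT replicates 2 and 3, 84.6 TPM in KO replicate 1 and 211 TPM in KO replicate 3, the order of *Ctsc*. KO replicate 1 was lowest and KO replicate 3 highest for 6 of the 8 tested markers. *Clec4f*, a marker of the resident Kupffer cells, stood at 32.1 and 39.2 TPM in WT livers against 30.0 and 58.0 in KO livers. *Cd5l*, which these cells secrete, stood at 38.8 and 37.3 TPM in WT livers against 11.4 and 45.5 in KO livers. KO replicate 1 was at least 2-fold below KO replicate 3 for 7 of the 8 tested markers, compared with 2.18% of all tested genes. Others differed, named after their values were seen: *Csf1r* stood at 8.79 and 9.56 TPM in WT livers against 3.34 and 8.30 in KO livers, and the leukocyte gene *Ptprc*, under the filter, at 0.383 and 0.307 TPM in WT livers against 0.860 and 0.800 in KO livers. None of the 12 was at 0 in all libraries. *Ctss*, a cathepsin of antigen-presenting cells named after its values were seen, stood at 19.0 and 26.9 TPM in WT livers against 16.5 and 29.1 in KO livers. The part of these cells in the values of *Ctsc* was not tested.

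**Figure D3:**
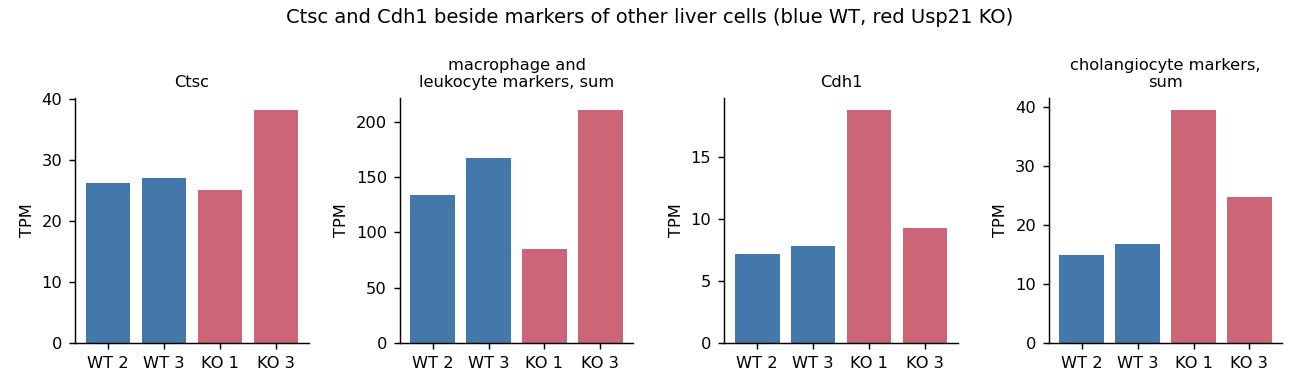
TPM (bars from 0) of *Ctsc*, of the summed macrophage and leukocyte markers, of *Cdh1* and of the summed cholangiocyte markers in WT (blue) and *Usp21* KO (red) libraries. *Ctsc* and the macrophage sum are both lowest in KO replicate 1 and highest in KO replicate 3, and *Cdh1* and the cholangiocyte sum are both highest in KO replicate 1.

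By their mean TPM over the 4 libraries the genes ranked *Cyp2f2* (553), *Pigr* (371), *Gls2* (196), *Hal* (180.5), *Sds* (130), *Ctsc* (29.2), *Sfxn1* (28.3) and *Cdh1* (10.8). The ranges over libraries did not overlap between *Cyp2f2* and *Pigr*, between *Pigr* and *Gls2*, between *Sds* and *Ctsc* or between *Sfxn1* and *Cdh1*. *Gls2*, *Hal* and *Sds* overlapped in turn, and so did *Ctsc* and *Sfxn1*, so the order within these groups is not larger than the spread. The 5 upper genes were above the mean of at least 93.1% of all tested genes, and *Cdh1* above that of 59.9%.

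For some of these genes the KO libraries differed more from each other than the WT libraries did. *Gls2*, *Sds* and *Cdh1* had 2.11, 2.09 and 2.02 times as many TPM in KO replicate 1 as in KO replicate 3, whereas *Ctsc*, *Cyp2f2* and *Pigr* had fewer. On the log2(TPM + 1) scale, *Sds* and *Gls2* were at least 2-fold higher in KO replicate 1, compared with 4.38% of all tested genes, and *Cdh1* differed by 0.94. Among all tested genes the median of this difference was 0.14, and the middle 90% lay between -0.63 and 0.95. KO replicate 1 was the highest of the 4 libraries for 4 of the 8 genes, which is near the 45.9% of all tested genes. These are 2 single libraries, so no test applies between them.

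Within the lists read beside them, *Sdsl*, *Ass1*, *Agxt* and *Oat* were also at least 2-fold higher in KO replicate 1, the last 3 named after their values were seen. *Ass1*, a periportal enzyme of the urea cycle, stood at 2137 and 1960 TPM in WT livers against 3138 and 1551 in KO livers. *Agxt*, an aminotransferase of glyoxylate and serine, stood at 186 and 142 TPM in WT livers against 363 and 174 in KO livers. *Oat*, which makes glutamate semialdehyde from ornithine, is a pericentral gene, and stood at 391 and 243 TPM in WT livers against 388 and 178 in KO livers.

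**Figure D4:**
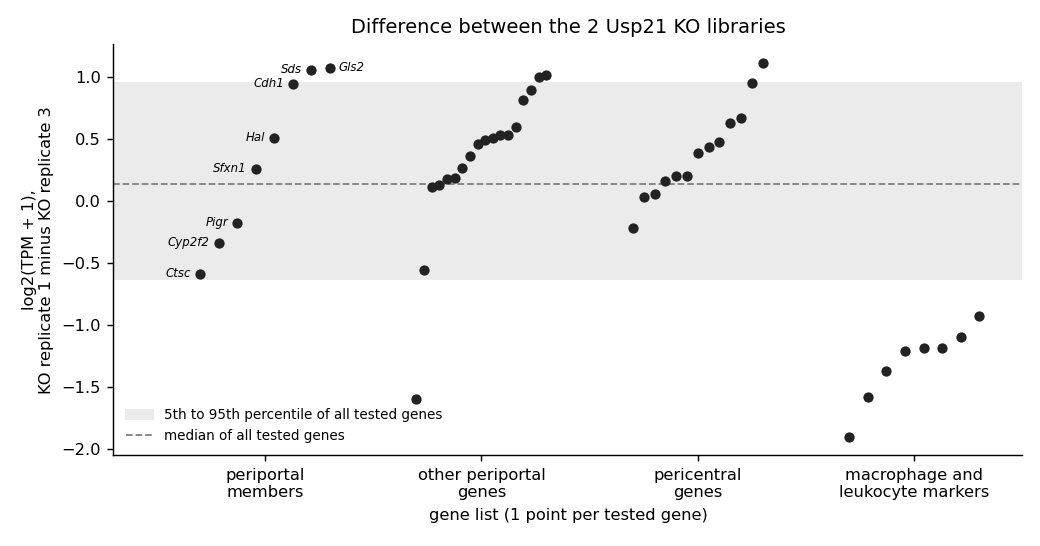
Difference in log2(TPM + 1) between KO replicate 1 and KO replicate 3 (vertical axis), 1 point per tested gene, for the 8 periportal genes (named), other periportal genes, pericentral genes and macrophage and leukocyte markers; the grey band holds the middle 90% of all tested genes and the dashed line is their median. *Sds* and *Gls2* lie just above the band, and all 8 macrophage and leukocyte markers lie below it.

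*Cdh1* and *Sds* had the widest ranges over the 4 libraries, 1.28 and 1.24 on the log2(TPM + 1) scale. Among 4017 genes whose mean reached 10 TPM, the profile nearest to that of *Cdh1* was that of *F11r*, which encodes the junction protein JAM-A. The root mean square difference between the centred profiles was 0.06 over 4 libraries. *F11r* stood at 22.9 and 25.5 TPM in WT livers against 64.0 and 30.9 in KO livers. *Pnrc2* and *Trmt1* came next, at 0.07 each. The profile nearest to that of *Sds* was that of *Hamp*, which encodes the iron hormone hepcidin, with 1053 and 863 TPM in WT livers against 2084 and 982 in KO livers (root mean square difference 0.05). *Trmt1* and *Hnrnpl* followed. With 4 libraries many genes can lie this close, and the likeness is a description.

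A list of 18 other periportal genes, which covers the urea cycle, glucose production and further amino acid enzymes, was read for comparison. All 18 were tested, with a median of 0.12, and 11 were higher (8 with upper quartile scaling) and 7 lower, compared with 66.7% of all tested genes higher. The KO libraries lay above both WT libraries for 5 of the 18 and below both for 2, compared with 34.4% and 10.9% of all tested genes. With limma, 0 had an adjusted p under 0.05 and 1 an unadjusted p under 0.05, compared with 10.5% of all tested genes. That gene was *G6pc*, the last enzyme of glucose release, with 22.4 and 31.6 TPM in WT livers against 56.4 and 173 in KO livers (difference 1.85, unadjusted p = 0.0135 and adjusted p = 0.464 from limma). KO replicate 3 was its highest library, whereas KO replicate 1 was the highest for *Sds* and *Gls2*. *Etnppl*, a phospholyase of phosphoethanolamine, differed by 0.95 (adjusted p = 0.511 from limma), with WT replicate 2 level with KO replicate 3. *Asl* of the urea cycle and *Alb* were the lowest of the list, at -0.38 and -0.35. Leaving out KO replicate 1 took the median to -0.13, KO replicate 3 to 0.38 and WT replicate 3 to 0.03.

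Of 16 pericentral genes 13 were tested, with a median of -0.29, 3 higher and 10 lower, and with upper quartile scaling 1 of the 13 was higher. The KO libraries lay below both WT libraries for 7 of the 13, compared with 10.9% of all tested genes. With limma, 0 had an adjusted p under 0.05 and 1 an unadjusted p under 0.05 (10.5% of all tested genes), which was *Gulo*, named after its values were seen (137 and 119 TPM in WT, 99.96 and 73.5 TPM in KO, adjusted p = 0.468 from limma). *Slc1a2*, a glutamate transporter of the cells next to the central vein, differed by -0.74 and the ammonium channel gene *Rhbg* by -0.81, with adjusted p-values of 0.491 and 0.516 from limma. *Rhbg* was low, at 3.44 and 1.42 TPM in WT livers against 1.36 and 0.483 in KO livers. *Tbx3*, a transcription factor of pericentral cells, went the other way at 0.76, with 1.94 and 1.32 TPM in WT livers against 4.48 and 2.55 in KO livers. The median of the list was -0.57 without WT replicate 3, -0.13 without WT replicate 2 and -0.18 without KO replicate 3. Whether the pericentral and periportal lists differ from each other was not tested.

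Genes that set the zones showed no call either. Of 14 genes of Wnt signalling and zonation control, 10 were tested, with a median of 0.33, 8 higher (also with upper quartile scaling) and 2 lower, compared with 66.7% of all tested genes higher. With limma, 0 had an adjusted p under 0.05 and 3 an unadjusted p under 0.05, compared with 10.5% of all tested genes. *Apc*, a part of the complex that destroys β-catenin, stood at 0.807 and 0.804 TPM in WT livers against 2.54 and 1.87 in KO livers (difference 0.82, adjusted p = 0.464 from limma). *Hnf4a*, a master transcription factor of hepatocytes, stood at 112 and 105 TPM in WT livers against 171 and 155 in KO livers (difference 0.59, unadjusted p = 0.0123 and adjusted p = 0.464 from limma). The third was *Ctnnb1*, given above.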

How the data were processed

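RNA-seq of liver was analysed for WT replicates 2 and 3 and *Usp21* KO replicates 1 and 3, grouped by their titles. The authors sequenced on a MiSeq, estimated abundances with salmon on mm10 and deposited TPM per gene. They also deposited HTSeq counts scaled by TMM as CPM, a count signal whose low values are whole multiples of 1 read (100% whole within 0.02 reads, 102898 to 148164 reads). On these reads edgeR called 12 genes. Aligner, versions, annotation and strand setting are not given in the sources used here, and the 2 deposited log2 tables were not used. There were 0 columns of other samples.

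limma 3.58.1 (lmFit, eBayes with trend, prior degrees of freedom 3.62) was run on log2(TPM + 1) and edgeR 4.0.16 on the reads, with R 4.3.3. Both were tested on simulated data. Genes under the filter on low values were left out of list counts. Positions, overlaps and 31-base matches on either strand come from GENCODE M21 (GRCm38), in which 35170 gene identifiers of the table were found. *G6pc* was matched by identifier.

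The members and lists (periportal, pericentral, histidine, serine and glycine, glutamine, sideroflexin, cathepsin, adherens junction, Wnt and 5 sets of cell markers) were chosen with earlier results of these data known. Named from each list were the 2 highest and 2 lowest differences or some of these, and others are marked as named after their values were seen. Some genes of the lists are not reported here by name. For *Cdh1* and *Sds*, of widest range, the 3 nearest profiles are named. As alternatives, the pseudocount was set to 0.1 or 5, and the filter was dropped or raised to 5 TPM. Others were upper quartile scaling, no moderation of variances, the CPM table, edgeR and each library left out.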

Additional observations from a re-analysis of the deposited data

How the results depend on the processing

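With all libraries kept, no periportal gene reached an adjusted p under 0.05 in any alternative run that gave it a value. Not all of these runs could have called one. Without moderation of variances 0 of all tested genes were called, and the CPM table and edgeR gave values for only 2 of the 8 genes. With each library left out, where the lone library of a genotype is assumed to vary like the others, the differences ran from 0.10 to 1.16 for *Sds*, 0.28 to 1.22 for *Cdh1*, -0.15 to 0.92 for *Gls2*, -0.30 to 0.33 for *Hal*, -0.0107 to 0.33 for *Cyp2f2*, -0.00405 to 0.18 for *Pigr*, -0.0796 to 0.51 for *Ctsc* and -0.0368 to 0.22 for *Sfxn1*. With a library left out, 1 library stands alone for its genotype, so no p-value of the periportal genes from these fits is given. Of the 8, the number with a higher mean in KO was 5 with upper quartile scaling and 5 to 8 with a library left out. With upper quartile scaling *Hal* was at -0.12, *Pigr* at -0.0479 and *Sfxn1* at -0.0371. Over the 8 genes, the counts of a higher mean and of an unadjusted p under 0.05 were added after seeing the data.

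The median of the 8 genes ran from 0.14 to 0.29, that of the other periportal genes from -0.13 to 0.38 and that of the pericentral genes from -0.57 to -0.13 with a library left out (0.29 for the 8 genes without WT replicate 2). *Shmt1* ran from -0.53 to 0.0828 (without WT replicate 3) and was 0.19 in the CPM table and 0.12 in edgeR; *Ctsa* was 0.12 and 0.093 there. Over all genes, those with an adjusted p under 0.05 numbered 4 with no filter, 0 without moderation, 1 in the CPM table and 0 with any library left out. Genes changed at least 2-fold numbered 353, and 820 and 115 with pseudocounts of 0.1 and 5, 203 with a mean of at least 5 TPM, 3134 in the CPM table, 2915 in edgeR and 463 to 695 with a library left out. The causes were not tested. Medians of the lists in the CPM table and edgeR were not run, and 6 of the 8 genes, with at most 3 reads in every library, were given no value there. *Cyp2f2* was 1.58 in the CPM table and 0.20 in edgeR, and *Pigr* 0.49 and 0.48. Because the CPM table lacks reads of abundant genes, these values are no check of the TPM differences. No paired analysis was run, because no litter or pairing of the libraries is given. The genotypes share 1 replicate number only, and a shared number is not stated to mark a pair.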

Other observations

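Marker lists of the remaining liver cells were read in the same way, with no test of a list. Of 6 endothelial markers, 6 were tested and all had a higher mean in KO (5 with upper quartile scaling), compared with 66.7% of all tested genes. Their median was 0.20, and *Lyve1* had the highest difference (0.98, adjusted p = 0.472 from limma). Its levels were low, at 0.651 and 0.299 TPM in WT livers against 2.91 and 1.14 in KO livers. Of 6 stellate cell markers, 5 were tested and all had a higher mean in KO (4 with upper quartile scaling), with a median of 0.52. The 7 hepatocyte markers summed to 92220 and 76190 TPM in WT livers against 79120 and 66890 in KO livers, and 2 were higher and 5 lower, with a median of -0.16.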
